A study of Mus musculus with 6 samples.

Results

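The genes described here are 29 genes of fatty acid oxidation and PPAR control, whose rows were found by gene symbol. Of these, 28 had a row among the 22956 genes of the count table, all 28 passed the filter on low counts, and 16654 genes were tested in all. The level of Ucp3, a mitochondrial carrier, was not analysed here. RNA was sequenced from mouse aorta in 2 groups of 3 libraries. The miR-21 knockout group had the labelled genotype miR-21fl/flmTmG/Myh11ERT2, a floxed miR-21 gene with an inducible Cre driven from the smooth muscle promoter Myh11. The WT group had the labelled genotype WT/mTmG/ Myh11ERT2, so both groups carried the driver and mTmG, a fluorescent reporter of Cre activity. All animals were of strain C57B6, 30 weeks old, and had eaten a western diet, a fat-rich feed, for 20 weeks. The cell type is labelled as smooth muscle cell and the tissue as aorta that was flash frozen, so other cells of the vessel wall can be present, and the Myh11 driver does not reach them. No label says whether replicates were separate animals, and p-values therefore measure only the spread between these samples. The comparison asked whether Ppara, a reported target of miR-21, and the genes it controls differ in level when smooth muscle lacks the microRNA.

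Mitochondria burn fatty acids in a cycle. Acyl-CoA synthetases activate the fatty acid, the carnitine shuttle carries it inward, and rounds of dehydrogenation, hydration, a second dehydrogenation and thiolysis cut acetyl-CoA from the chain. PPARα, encoded by Ppara, is a fatty acid-sensing nuclear receptor that binds DNA with a retinoid X receptor partner and switches on many enzymes of this cycle, most strongly in liver, heart and brown fat. PGC-1α, encoded by Ppargc1a, is a coactivator that raises the same enzymes together with mitochondrial number. A microRNA lowers messages whose 3′ untranslated region (UTR) pairs with its seed, so loss of a microRNA can raise its targets.

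The seed of miR-21 could pair with 2 members that hold its match of 7 bases or more, Ppara and Ppargc1a, and those stretches are shown because Ppara is a reported target. The mature miR-21a-5p (RefSeq, GRCm38.p6) lies at chr11:86584120-86584141 on the minus strand, with the seed, bases 2 to 8, in capitals. The UTR stretches (GENCODE M21, GRCm38) are chr15:85801818-85801841 on the plus strand in Ppara and chr5:51455051-51455074 on the minus strand in Ppargc1a, with the seed match in capitals.
miR-21a-5p: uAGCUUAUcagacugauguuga
Ppara 3′ UTR: agaatagtttgATAAGCTAtccca
Ppargc1a 3′ UTR: cccatcaaaatATAAGCTgtaagc

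Ppara held the longest form, ATAAGCTA, which is the match to the seed followed by A, starting at base 571 of a 3′ UTR of 1561 bases. Ppargc1a held ATAAGCT, the match without that A, at base 3117 of 3930. A shorter match to bases 2 to 7, TAAGCT, stood in the 3′ UTR of Acadm at chr3:153922880-153922903 on the minus strand (ccctcgtgtaacTAAGCTccaagc). In Ppargc1a, TAAGCT also stood at base 3125, just after the longer match. Among the 28 members, 2 (7.14%) held ATAAGCT, against 948 (7.30%) of the 12981 tested genes with a 3′ UTR. ATAAGCTA stood in 1 member (3.57%) and in 282 (2.17%) of those genes. TAAGCT, alone or within a longer match, stood in 3 members (10.7%) and in 3215 (24.8%) of those genes. The median 3′ UTR was 584.5 bases in members and 1049 bases in all those genes. A match of letters is a description and does not show that the site is used.

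Libraries held between 37787465 and 72277179 estimated counts in the knockout group and between 37996254 and 154384307 in WT. Levels are given in CPM, estimated counts scaled to a common library total with edgeR's TMM factors. Myh11, the smooth muscle myosin, stood at 7110 to 9458 CPM in knockout libraries and 5427 to 8244 CPM in WT. All 7 smooth muscle markers were higher in the knockout, where 49.4% of all genes were (log2 fold changes of 0.05 to 0.36, none past the adjusted threshold in edgeR). Adventitial fibroblast markers differed widely between libraries, with summed levels over 8 genes of 5426, 1306 and 1844 CPM in knockout replicates 1, 2 and 3, and of 6637, 2984 and 5929 CPM in WT replicates 1, 2 and 3. Of these 8, 7 were lower in the knockout, where 50.6% of all genes were. Their median log2 fold change was -0.39, and none passed the adjusted threshold in edgeR. Macrophage markers summed to 26.9 CPM in knockout replicate 1 and 24.3 CPM in WT replicate 1, against at most 15.3 CPM in the other libraries. Of 15 adipocyte markers, 8 had a row and summed to 56.5 to 69.7 CPM in knockout libraries and 53.0 to 74.4 CPM in WT. Adipoq, Plin1, Cidec, Retn, Cfd, Lep and Cox8b had no row. Lipe, Fabp4 and Pparg made up most of the sum, at 49.6 to 63.8 CPM in knockout and 47.35 to 68.0 CPM in WT libraries. Brown fat Ucp1 did not exceed 0.0736 CPM in any library and was at 0 in replicate 1 of both groups. Of 6 cardiac markers tested, 5 were higher in the knockout. None passed the adjusted threshold in edgeR, but 1 did in DESeq2, where 0.438% of all genes did. Ryr2, Actc1 and Tnni3 were higher at an unadjusted edgeR p under 0.05, as were 3.95% of all genes. Cardiac markers summed to 41.4 to 70.9 CPM in knockout libraries and 35.6 to 49.2 CPM in WT. The heart myosin Myh6 stayed at or below 0.870 CPM, and Myl2, a ventricular light chain, was at 0 in 4 libraries. The part of these markers in the members' levels was not tested. In bulk RNA, fewer cells of a type and less RNA per cell cannot be told apart. The microRNA itself was not measured, and its host gene Vmp1 averaged 68.1 ± 8.12 CPM in knockout and 69.7 ± 15.3 CPM in WT libraries (SD, n = 3 each), which does not check the deletion.

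No difference between knockout and WT aorta was detected in any of the oxidation and PPAR genes, and they lay on both sides of 0. Of the 28 members, 12 were higher and 16 lower in the knockout, and their median log2 fold change (knockout over WT) was -0.03, against -0.0022 for all genes tested. Below 0 lay 57.1% of members and 50.6% of all genes. The sum over the members was 1446 ± 86.9 CPM in knockout and 1442 ± 27.3 CPM in WT libraries (SD, n = 3 each). Without the 3 regulators, the 25 enzymes and carriers had a median of -0.04, with 10 higher and 15 lower. A common shift of the genes downstream of Ppara was therefore not seen in these libraries.

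No member passed an adjusted p of 0.05 in edgeR's quasi-likelihood test with Benjamini-Hochberg adjustment, where 0.0% of all genes did. The smallest adjusted p of a member was 0.78. DESeq2 called 0 members as well, and 0.438% of all genes. At an unadjusted edgeR p under 0.05, which 5.96% of all genes reached, 0 members were higher, where 3.95% of all genes were, and 1 member, Decr1, was lower, where 2.01% of all genes were. Decr1 was also the 1 member at an unadjusted DESeq2 p under 0.05, which 6.02% of all genes reached. In 0 members did all 3 knockout libraries lie above all 3 WT libraries, against 6.48% of all genes. In 1 member, again Decr1, all 3 lay below, against 5.6% of all genes.

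The precision was enough to bound most of these values. For 23 of the 28 members (82.1%) the 95% interval of the difference lay within a 1.5-fold change in either direction, as it did for 59.8% of all genes. The exceptions were Ppara, Ppargc1a, Cpt1b, Acadl and Pdk4, whose intervals reached beyond it. The median standard error of a member's log2 fold change was 0.0813, against 0.137 for all genes. The median size of the change, whatever its sign, was 0.0718 in members and 0.114 in all genes.

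**Figure D1:**
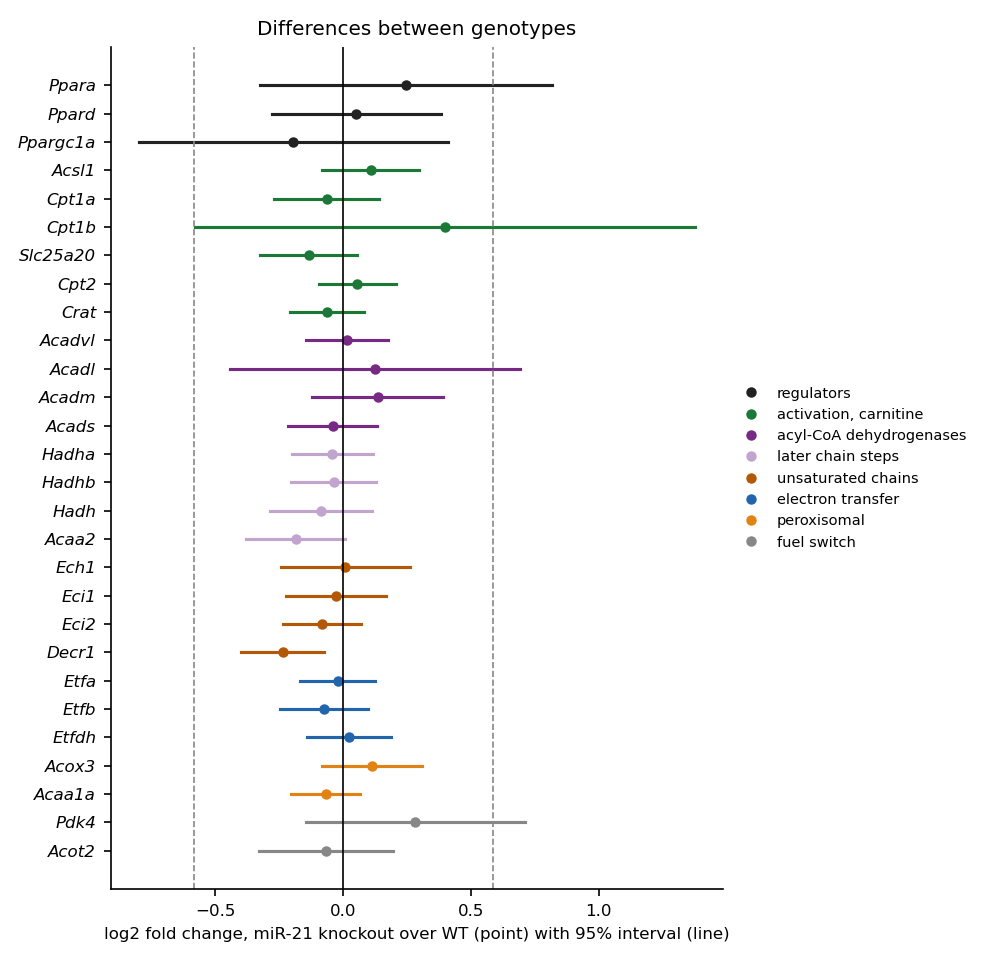
Log2 fold change (knockout over WT) of the 28 members with 95% intervals from edgeR, grouped by role, with dashed lines at 1.5-fold in either direction. The interval of Decr1 (-0.40 to -0.07) lies wholly below 0, and those of Ppara, Ppargc1a, Cpt1b, Acadl and Pdk4 cross a dashed line.

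Messages of the 3 regulators were scarce. Per kilobase of transcript, which allows genes to be compared, Ppara had 0.979 CPM per kb in knockout and 0.824 in WT libraries. Ppard had 1.06 CPM per kb in knockout and 1.02 in WT libraries, and Ppargc1a had 0.452 in knockout and 0.520 in WT libraries. The only enzyme gene in this low range was Cpt1b, at 0.778 CPM per kb in knockout and 0.583 in WT. The highest members were Etfa, with 56.2 CPM per kb in knockout and 57.0 in WT libraries, Acadvl, with 52.9 in knockout and 52.3 in WT libraries, and Acadm, with 52.5 in knockout and 47.7 in WT libraries. By mean CPM per kb over all 6 libraries, Etfa lay at percentile 91.9 of the tested genes with an annotated coding transcript, Ppara at 16.3 and Ppargc1a at 11.0. The aorta thus carried much message for most genes of the cycle and little for Ppara, Ppard and Ppargc1a.

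**Figure D2:**
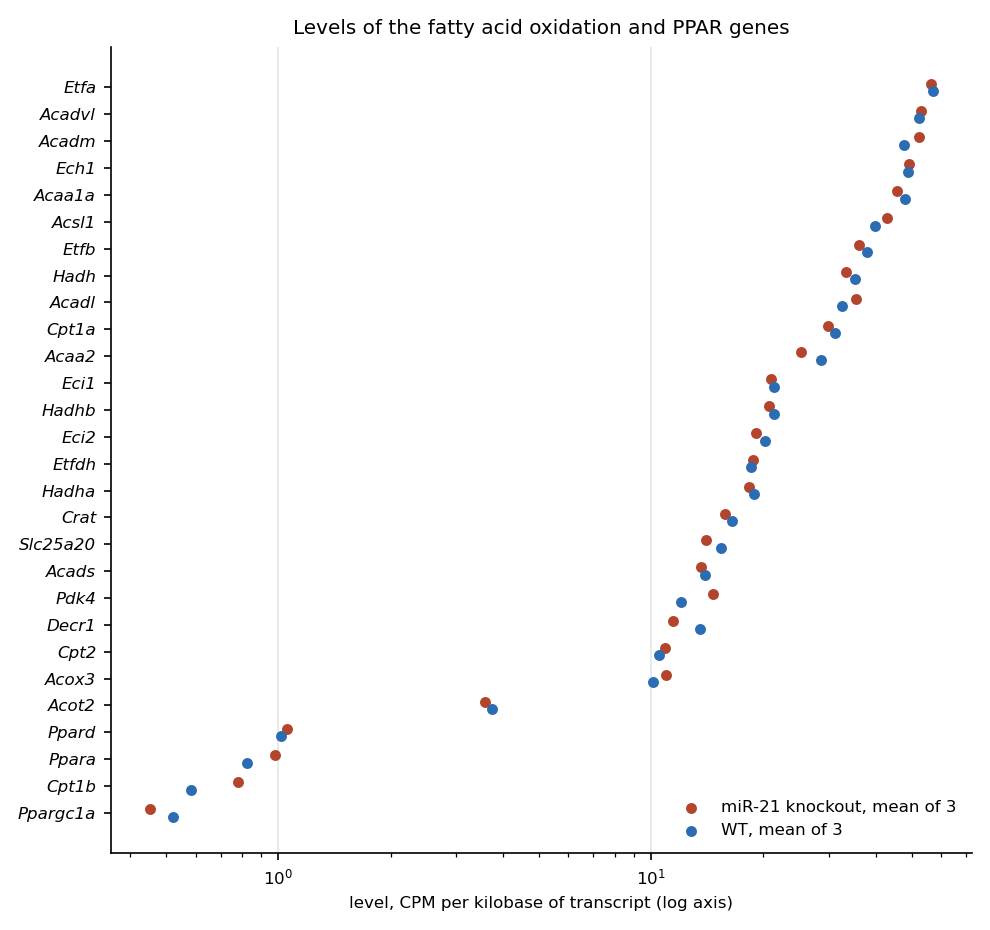
Level of each member in CPM per kilobase of transcript (log axis), ordered from highest to lowest, with 1 point for the mean of the 3 knockout libraries and, just under it, 1 for the mean of the 3 WT libraries. Ppara, Ppard, Ppargc1a and Cpt1b sit near 1 CPM per kb or below, and Etfa and Acadvl exceed 50 in both groups.

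Ppara (chr15:85734983-85802819, plus strand) had 3.35, 3.18 and 3.49 CPM in knockout replicates 1, 2 and 3, against 1.90, 3.53 and 3.00 CPM in WT replicates 1, 2 and 3. WT replicate 1 was the lowest library and WT replicate 2 the highest, so the groups overlapped. Means were 3.34 ± 0.155 CPM in knockout and 2.81 ± 0.834 CPM in WT libraries (SD, n = 3 each). The log2 fold change was 0.25 ± 0.24 (SE), with a 95% interval from -0.32 to 0.82 (edgeR adjusted p = 0.889). It was 0.04 without WT replicate 1 and 0.43 without WT replicate 2. Summed fibroblast markers were highest in WT replicate 1 (6637 CPM). They were 5929 CPM in WT replicate 3 and 5426 CPM in knockout replicate 1, where Ppara stood at 3.00 and 3.35 CPM. The part of fibroblast markers in the Ppara values was not tested.

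Ppard encodes the broadly expressed receptor PPARδ. It had 3.46, 3.52 and 3.41 CPM in knockout libraries, against 3.48, 3.12 and 3.42 CPM in WT libraries. All 6 values lay close together and overlapped. The log2 fold change was 0.05 ± 0.14 (edgeR adjusted p = 0.963).

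Ppargc1a (chr5:51454250-51567726, minus strand) had 2.04, 3.43 and 3.30 CPM in knockout replicates 1, 2 and 3, against 4.09, 2.75 and 3.25 CPM in WT replicates 1, 2 and 3. The lowest value was in knockout replicate 1 and the highest in WT replicate 1, and the other 4 libraries lay between them. Its log2 fold change was -0.20 ± 0.26 (edgeR adjusted p = 0.923). Without knockout replicate 1 it was -0.0020, and without WT replicate 1 it was -0.04, but it was -0.32 without knockout replicate 2 and also without WT replicate 2. Both members with a seed match of 7 bases or more therefore had intervals on both sides of 0, Ppara with a value above it and Ppargc1a below it.

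Fatty acid activation and the carnitine shuttle comprised 6 members, 3 higher and 3 lower, none past the test. Acsl1, which joins coenzyme A to long-chain fatty acids, averaged 167 ± 12.6 CPM in knockout and 155 ± 9.04 CPM in WT libraries (log2 fold change 0.11 ± 0.08). Cpt1a, the outer-membrane carnitine palmitoyltransferase that sets the rate of entry, averaged 129 ± 9.75 CPM in knockout and 135 ± 10.9 CPM in WT libraries (-0.06 ± 0.09). Its 95% interval, from -0.27 to 0.14, lay within 1.5-fold. Its muscle form Cpt1b had 1.39, 2.29 and 3.07 CPM in knockout libraries, against 0.976, 1.60 and 2.49 CPM in WT libraries. The groups overlapped, and the log2 fold change of 0.40 ± 0.41 was the least precise among the members. It was 0.11 without knockout replicate 3, 0.13 without WT replicate 1, 0.63 without knockout replicate 1 and 0.81 without WT replicate 3. Cpt1b overlaps Chkb on the same strand, a gene at 31.3 CPM in knockout and 28.9 CPM in WT libraries, so the split of shared counts is uncertain. Slc25a20, the carrier of acylcarnitines across the inner membrane, averaged 25.02 ± 0.597 CPM in knockout and 27.5 ± 2.38 CPM in WT libraries (-0.13 ± 0.08). Cpt2, which releases the acyl-CoA inside, and Crat, which handles short acylcarnitines, had log2 fold changes of 0.06 ± 0.06 and -0.06 ± 0.06.

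The acyl-CoA dehydrogenases open each round and differ in the chain length they take. Of these 4, 3 were higher and 1 lower, and none passed the test. Acadvl, for very long chains, had 106.8, 119.1 and 118.1 CPM in knockout libraries, against 108.5, 115.9 and 115.8 CPM in WT libraries. Replicate 1 was the lowest of its group in both genotypes, and the groups overlapped (log2 fold change 0.02 ± 0.07). Acadm, for medium chains, had 95.5, 119.6 and 107.0 CPM in knockout libraries, against 87.7, 107.7 and 97.6 CPM in WT libraries. Its values followed the same order of replicates in both groups and overlapped between them (0.14 ± 0.11, edgeR adjusted p = 0.872).

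Acadl, for long chains, had 44.8, 73.8 and 85.2 CPM in knockout replicates 1, 2 and 3, against 66.1, 53.5 and 67.6 CPM in WT libraries. Knockout replicate 1 was the lowest of all libraries and knockout replicates 2 and 3 the highest. The log2 fold change was 0.13 ± 0.24. It was 0.35 without knockout replicate 1 (edgeR adjusted p = 0.488) and -0.07 without knockout replicate 3. Acads, for short chains, averaged 25.4 ± 1.89 CPM in knockout and 26.1 ± 0.466 CPM in WT libraries (-0.04 ± 0.07).

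The 4 genes of the later steps were all lower in the knockout, none past the test. Hadha and Hadhb, the α and β subunits of the trifunctional protein that completes the cycle for long chains, had log2 fold changes of -0.04 ± 0.07 each. Hadh, the hydroxyacyl-CoA dehydrogenase for shorter chains, averaged 59.5 ± 3.59 CPM in knockout and 63.1 ± 5.72 CPM in WT libraries (-0.08 ± 0.08). Acaa2, the thiolase that releases acetyl-CoA, had 38.1, 39.8 and 36.6 CPM in knockout libraries, against 42.5, 39.7 and 47.7 CPM in WT libraries. Knockout replicate 2 and WT replicate 2 were all but equal and every other knockout library lay below every WT library. Its log2 fold change was -0.19 ± 0.08 (edgeR adjusted p = 0.835).

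Unsaturated fatty acids need auxiliary enzymes that shift or reduce their double bonds, and this group held the member with the smallest p. Decr1 (chr4:15917240-15945507, minus strand), the mitochondrial dienoyl-CoA reductase, had 35.0, 33.4 and 33.4 CPM in knockout libraries, against 42.3, 37.0 and 40.7 CPM in WT libraries. Every knockout library lay below every WT library. Means were 33.9 ± 0.931 CPM in knockout and 40.0 ± 2.71 CPM in WT libraries (SD, n = 3 each). The log2 fold change was -0.24 ± 0.07, or 0.849 of the WT level with a 95% interval from 0.757 to 0.951. Adjusted over all genes, the p was 0.78 in edgeR and 0.433 in DESeq2, so the difference did not pass. In each of 13 alternative settings the unadjusted p of Decr1 was under 0.05, and its adjusted p was at least 0.202.

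The isomerases that act beside Decr1 were closer to 0. Ech1, a dienoyl-CoA isomerase, averaged 62.4 ± 7.84 CPM in knockout and 62.0 ± 4.90 CPM in WT libraries (log2 fold change 0.0091 ± 0.11). Eci1 and Eci2, which move double bonds into the place the cycle can use, had log2 fold changes of -0.03 ± 0.08 and -0.08 ± 0.06.

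Electrons from the acyl-CoA dehydrogenases pass to the electron transfer flavoprotein and on to ubiquinone. Etfa, its α subunit, had 73.9, 82.6 and 78.1 CPM in knockout libraries, against 77.1, 80.8 and 80.1 CPM in WT libraries. The WT values lay inside the range of the knockout values (log2 fold change -0.02 ± 0.06). Etfb, the β subunit, averaged 32.2 ± 0.241 CPM in knockout and 33.9 ± 2.66 CPM in WT libraries (-0.08 ± 0.07). Etfdh, the oxidoreductase that hands the electrons to ubiquinone, had a log2 fold change of 0.02 ± 0.07. No electron transfer gene passed the test.

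Of the 2 peroxisomal members, Acox3, an oxidase for branched chains, averaged 43.5 ± 3.31 CPM in knockout and 40.2 ± 2.91 CPM in WT libraries (log2 fold change 0.11 ± 0.08). Acaa1a, the peroxisomal thiolase, averaged 80.6 ± 1.40 CPM in knockout and 84.5 ± 3.66 CPM in WT libraries (-0.07 ± 0.06). Its near copy Acaa1b did not exceed 0.589 CPM.

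Pdk4 encodes a kinase that shuts off pyruvate dehydrogenase and so spares glucose, and is a widely used readout of PPAR activity. It had 39.9, 60.4 and 52.9 CPM in knockout replicates 1, 2 and 3, against 46.0, 34.2 and 45.8 CPM in WT libraries. Knockout replicates 2 and 3 were the highest libraries, but knockout replicate 1 lay below 2 WT libraries. The log2 fold change was 0.28 ± 0.18 (edgeR adjusted p = 0.864), and leaving out 1 library gave between 0.14, without knockout replicate 2, and 0.43, without knockout replicate 1 (edgeR adjusted p = 0.487). It was 0.15 without WT replicate 2. Acot2, a mitochondrial thioesterase that frees fatty acids from coenzyme A, averaged 7.86 ± 0.806 CPM in knockout and 8.22 ± 0.180 CPM in WT libraries (-0.07 ± 0.11).

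**Figure D3:**
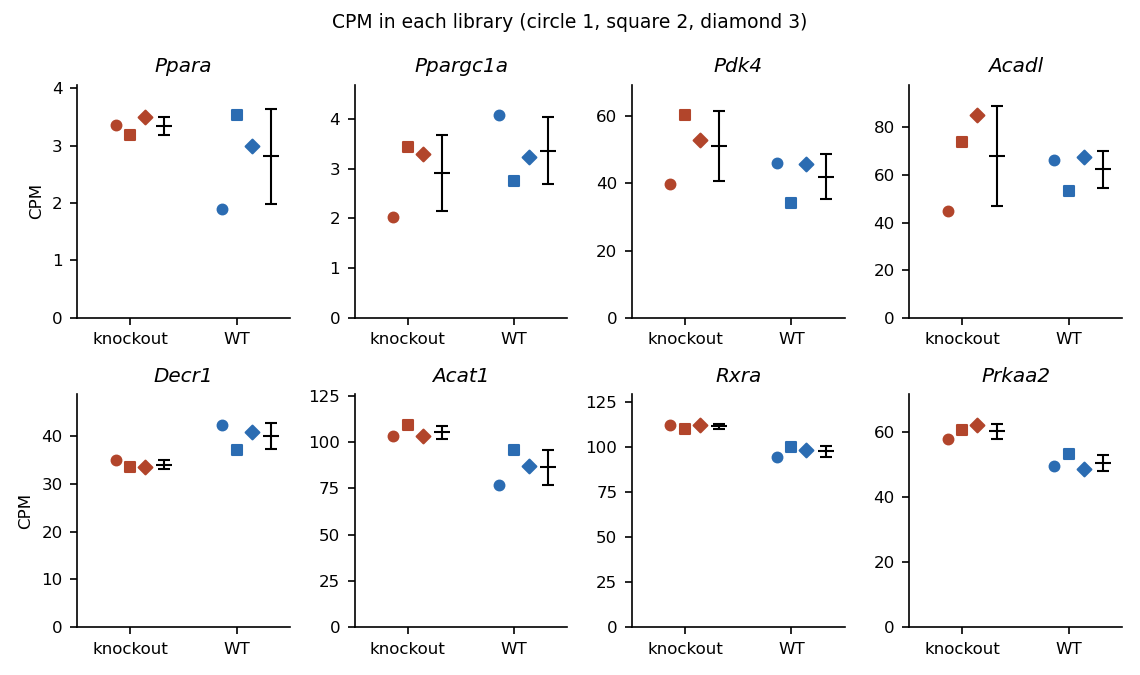
CPM per library for Ppara, Ppargc1a, Pdk4, Acadl, Decr1, Acat1, Rxra and Prkaa2, with knockout libraries left of WT libraries, circle, square and diamond for replicates 1, 2 and 3, and bars for mean ± SD. The groups overlap for Ppara, Ppargc1a, Pdk4 and Acadl, and separate for Decr1 (lower in the knockout) and for Acat1, Rxra and Prkaa2 (higher).

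The same libraries were low for many members at once. Knockout replicate 1 was the lowest of the 6 libraries for 12 of the 28 members and WT replicate 1 for 8, while knockout replicate 2 was the highest for 10. The summed level was 1346, 1505 and 1487 CPM in knockout replicates 1, 2 and 3, and 1412, 1448 and 1466 CPM in WT replicates 1, 2 and 3. Knockout replicate 1 and WT replicate 1 thus had the lowest sums of their groups, and both also had high fibroblast and macrophage markers. Fibroblast markers in WT replicate 3 summed to 5929 CPM, between knockout replicate 1 (5426) and WT replicate 1 (6637). WT replicate 3 had the highest member sum of the WT group. Knockout replicate 2 had the highest member sum of all libraries and the highest summed cardiac (70.9 CPM) and smooth muscle (36050 CPM) markers. The part of cell types in the member sums was not tested. Without knockout replicate 1, 14 members were higher and 14 lower, with a median log2 fold change of 0.0032. Without knockout replicate 2, 9 were higher and 19 lower, with a median of -0.06.

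Across the 6 libraries the median coefficient of variation of the members was 7.14%, against 9.36% for the 11550 tested genes within the members' range of levels. Cpt2 varied least, at 3.76%, and Cpt1b most, at 39.7%.

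**Figure D4:**
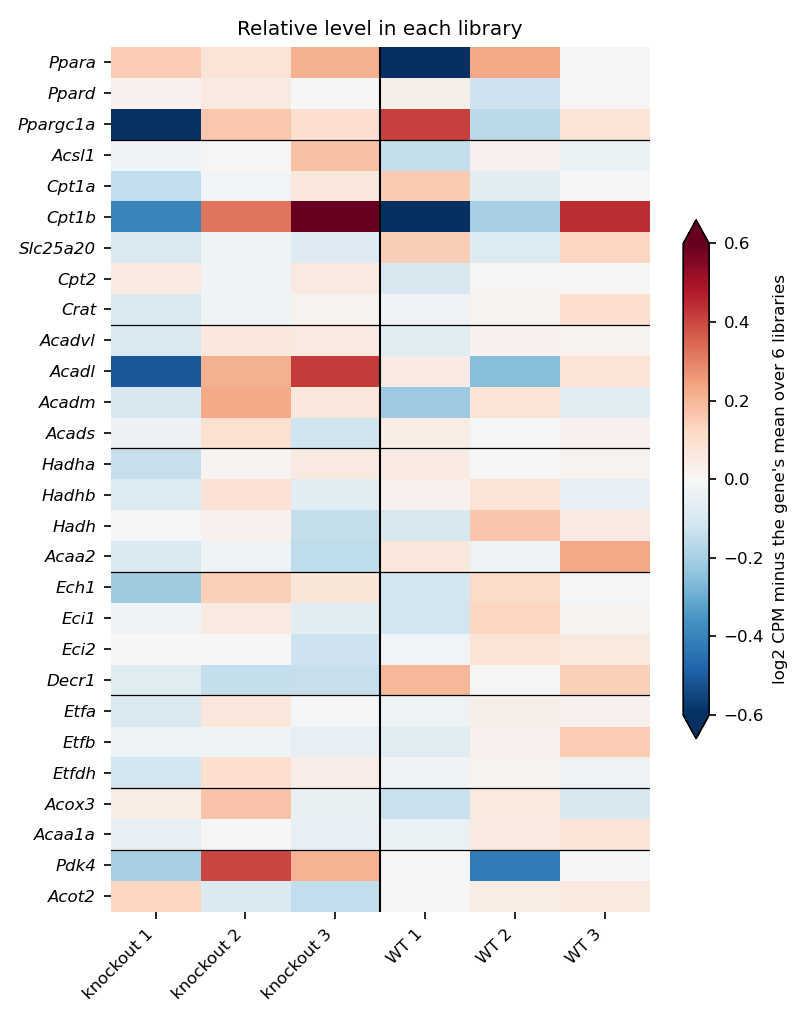
Log2 CPM of each member in each library relative to its mean over the 6 libraries, with knockout columns left of WT columns and colours saturating at 0.6 in either direction. The columns of knockout replicate 1 and WT replicate 1 are the lowest on average, at -0.098 and -0.053, and no block of members separates the genotypes.

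Among other regulators of the pathway, most were higher in the knockout, though none passed the test. Of 28 tested genes, 21 were higher and 7 lower (median log2 fold change 0.09), where 49.4% of all genes were higher. At an unadjusted edgeR p under 0.05, 5 were higher and 0 lower, where 3.95% of all genes were higher and 2.01% lower, and 0 passed the adjusted threshold in edgeR or DESeq2. Rxra, the retinoid X receptor that pairs with PPARα, had 112.2, 109.9 and 112.5 CPM in knockout libraries, against 94.5, 100.2 and 98.4 CPM in WT libraries. The groups were separate, with the knockout higher (0.19 ± 0.05, edgeR adjusted p = 0.78). Prkaa2, a catalytic subunit of the energy-sensing kinase AMPK, had 57.9, 60.7 and 62.3 CPM in knockout libraries, against 49.8, 53.4 and 48.8 CPM in WT libraries, and also did not overlap (0.25 ± 0.06, edgeR adjusted p = 0.75).

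The other 3 were coactivators and an enzyme. Ep300, an acetyltransferase coactivator, averaged 57.0 ± 2.23 CPM in knockout and 48.7 ± 0.422 CPM in WT libraries (log2 fold change 0.23 ± 0.05, edgeR adjusted p = 0.75). Acacb, which makes the malonyl-CoA that blocks carnitine palmitoyltransferase, averaged 9.32 ± 0.732 CPM in knockout and 7.45 ± 0.174 CPM in WT libraries, without overlap (0.32 ± 0.10). Med1, a Mediator subunit that binds nuclear receptors, averaged 50.5 ± 7.71 CPM in knockout and 37.6 ± 6.88 CPM in WT libraries, with overlap (0.43 ± 0.16). Pparg, the adipocyte receptor PPARγ, had 7.05, 5.33 and 4.87 CPM in knockout libraries, against 12.1, 4.93 and 6.83 CPM in WT libraries. WT replicate 1 stood above the rest, and the log2 fold change was -0.47 ± 0.34. Without knockout replicate 2, 15 regulators were higher and 13 lower, with a median of 0.04.

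Further PPAR target genes lay on both sides of the WT level. Of 30 listed genes, 22 had a row and 20 were tested. Cyp4a10, Cyp4a14, Fabp1, Fgf21, Aqp7, Pck1, Cidec and Adipoq had no row, and Plin5 and Acot4 were not tested. Of the 20 tested, 9 were higher and 11 lower (median log2 fold change -0.06, against -0.0022 for all genes), and 0 passed the adjusted threshold in edgeR or DESeq2. The median was -0.22 without knockout replicate 1 (7 higher and 13 lower), -0.14 without WT replicate 3 (6 and 14) and 0.03 without knockout replicate 2 (11 and 9). Plin4, which coats lipid droplets, had 213, 231 and 247 CPM in knockout libraries, against 172, 187.1 and 195 CPM in WT libraries. The groups did not overlap (0.32 ± 0.08, edgeR adjusted p = 0.78). Gpd1, which makes glycerol phosphate, averaged 18.5 ± 0.939 CPM in knockout and 23.2 ± 3.77 CPM in WT libraries (-0.33 ± 0.12). Fabp3, a fatty acid carrier of muscle, averaged 13.2 ± 2.02 CPM in knockout and 11.3 ± 3.86 CPM in WT libraries (0.22, and -0.02 without WT replicate 1). Hilpda, a lipid droplet protein, averaged 6.85 ± 0.673 CPM in knockout and 7.92 ± 0.519 CPM in WT libraries (-0.21).

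Among other genes of fatty acid entry and oxidation, 15 of 36 were higher and 21 lower (median log2 fold change -0.01, with 0.03 without knockout replicate 1 and -0.04 without knockout replicate 2 or WT replicate 1), with 2 in each direction at an unadjusted edgeR p under 0.05 (3.95% of all genes were higher there and 2.01% lower) and 0 past the adjusted threshold in edgeR or DESeq2. Acat1, which makes and splits acetoacetyl-CoA, had 103.5, 109.4 and 103.2 CPM in knockout libraries, against 76.8, 95.6 and 86.9 CPM in WT libraries. Its groups did not overlap, the knockout being higher (0.29 ± 0.09, edgeR adjusted p = 0.786). Its 3′ UTR holds the longest seed match, ATAAGCTA, at base 77 of 2023, and the stretch at chr9:53582456-53582479 on the minus strand is shown because Acat1 is the one gene of these pathway lists with that match, a choice made after its value was seen.
Acat1 3′ UTR: ttatattcagcATAAGCTAtttca
Over the 101 genes of the 4 lists joined, 5 held ATAAGCT and 1 held ATAAGCTA. Of the 12981 tested genes with a 3′ UTR, 7.30% held ATAAGCT and 2.17% ATAAGCTA. Among the 5, Acat1, Lpin1 and Oxct1 were higher (log2 fold changes of 0.29, 0.04 and 0.13) and Nrip1 and Pex7 lower (-0.10 each). None of the 5 passed the test. Over all tested genes with a 3′ UTR, the median log2 fold change was 0.0511 with ATAAGCT and -0.0062 without it. With ATAAGCTA it was 0.0987, and -0.0047 without. These differences were not tested.

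Dbi, the acyl-CoA binding protein, averaged 66.5 ± 3.30 CPM in knockout and 78.9 ± 2.46 CPM in WT libraries, without overlap (-0.25 ± 0.06). Slc27a1, a fatty acid transport protein, averaged 34.9 ± 2.76 CPM in knockout and 40.1 ± 1.82 CPM in WT libraries (-0.20 ± 0.08). Acad10, a member of the acyl-CoA dehydrogenase family, averaged 4.60 ± 0.430 CPM in knockout and 3.59 ± 0.204 CPM in WT libraries (0.35 ± 0.14). Of 19 other peroxisomal oxidation genes, 4 were higher and 15 lower (78.9% lower, against 50.6% of all genes). The median was -0.06, with -0.04 without knockout replicate 1 (7 higher and 12 lower) and -0.09 without knockout replicate 3 (2 and 17). Phyh, which starts the breakdown of phytanic acid, averaged 45.8 ± 0.782 CPM in knockout and 52.1 ± 0.309 CPM in WT libraries (-0.19 ± 0.05, edgeR adjusted p = 0.78), and its groups did not overlap. None of these passed the adjusted threshold.

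The nuclear-encoded respiratory chain, which takes up the electrons that oxidation yields, gave the nearest comparison. Of its 77 genes, 10 were higher and 67 lower (87.0% lower, against 57.1% of members), but the median was only -0.04, close to the -0.03 of the members, and 0 reached an unadjusted edgeR p under 0.05. No test of the difference between the lists was made. The count depended on single libraries, with 47 genes lower without knockout replicate 1 and 41 without WT replicate 2, but all 77 without WT replicate 1 (median -0.09, with 5 at an unadjusted edgeR p under 0.05). Of 18 citric acid cycle genes, 9 were higher and 9 lower, but the split depended on single libraries. It was 16 higher and 2 lower without knockout replicate 1, 14 and 4 without WT replicate 2, 3 and 15 without knockout replicate 2, and 2 and 16 without WT replicate 1. Of 25 genes of cholesterol and fatty acid synthesis 11 were higher and 14 lower.

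Promoters of the members were searched for the elements that PPARs and related receptors bind. RefSeq promoters (250 bases before to 50 after the start) were matched for 25 of the 29 members, and both strands were searched. The direct repeat AGGTCANAGGTCA, which PPAR and retinoid X receptor pairs bind, stood in 0 of 25 members and in 0.0481% of 27025 genes with a promoter. The estrogen-related receptor element TCAAGGTCA stood in 0 of 25 members and in 0.466% of those genes. The single unit AGGTCA, which lies within both, stood in 4 of 25 members (Cpt1a, Acadvl, Acadm and Ucp3) and in 18.1% of those genes. The letters were searched only exactly and in this short window.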

How the data were processed

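Gene-level estimated counts for the 6 libraries came in 1 table that the authors deposited without normalization. The submitters' processing notes name mm10, STAR 2.6 and DESeq2 but not what each tool did. How reads were counted, with which annotation and whether by strand, is not given in the sources used here, which leaves overlapping genes and near copies uncertain. TruSeq libraries were prepared from 1 ug of RNA, per the labels' protocols. Of the values in a library, 43.6% to 54.3% were whole numbers, and all were rounded before testing. All 6 sample columns were matched by the sample codes in the labels, leaving 0 unused.

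Knockout was compared with WT over 16654 genes (filterByExpr, TMM, two-sided robust quasi-likelihood test of edgeR 4.0.16 in R 4.3.3, Benjamini-Hochberg over all genes). Intervals of 95% cover the spread between libraries. Replicates of a group differed by more than counting noise, with a mean chi-square per gene of 31.2 to 109. Per-kilobase levels used GENCODE M21 transcripts, and sites used the principal transcript. Alternatives were other scalings and filters, DESeq2 1.42.0, limma 3.58.1 voom with quality weights, the replicate block and leaving out each library. The fit was tested on simulated data.

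Members and gene lists were chosen with earlier results of these data known. Libraries are given singly for the 3 regulators, members at an unadjusted p under 0.05 and the 3 highest per length, and other members were added after their values were seen. From the other lists, up to 3 genes per direction by smallest p were named, restricted after seeing values to an unadjusted p under 0.05 except among PPAR targets. Pparg and Rxra were named whatever their values, 2 further genes under this rule are not reported, and Acacb and Med1 after their values were seen. Figures used matplotlib 3.10.9.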

Additional observations from a re-analysis of the deposited data

How the results depend on the processing

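No member was called at an adjusted p of 0.05 or of 0.1 in any of the 14 alternatives. Over all genes the count of calls was 0, against 73 with the DESeq2 Wald test, 1 with the replicate block and 0 to 1 on leaving out each library; the cause was not tested. The member median kept within the spread of the main value. Of 364 values for single members, 350 kept their direction and 14, in 9 members, did not. Leaving out each library gave log2 fold changes of -0.117 to 0.0011 for Cpt1a, -0.0153 to 0.0599 for Acadvl, -0.0725 to 0.346 for Acadl, -0.0988 to 0.0090 for Acads, -0.0819 to 0.0085 for Hadha, -0.0621 to 0.103 for Ech1, -0.0860 to 0.0288 for Eci1, -0.0626 to 0.0137 for Etfa, -0.0234 to 0.0760 for Etfdh and -0.0228 to 0.423 for Fabp3. With upper-quartile factors Ech1 was at -0.0036. Acaa2 passed an unadjusted p of 0.05 in 3 alternatives but never an adjusted one.

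Whether the replicate numbers pair the libraries cannot be told from these values. Same-numbered libraries deviated together with correlations of 0.32, 0.357 and -0.0233 for replicates 1, 2 and 3. Other pairs had correlations of -0.387 to 0.134, the highest being knockout replicate 3 with WT replicate 2. Deviations from a mean of 3 libraries depend on each other, so these correlations cannot decide it. With the replicate block 0 members were called, the member median was -0.03, and Acadm reached an unadjusted edgeR p under 0.05 (edgeR adjusted p = 0.342). The shallowest values of Cpt1b, Ppara and Ppargc1a were 37, 72 and 76 estimated counts in a library, and the part of depth in their spread was not tested.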
